A study of Homo sapiens with 24 samples.

Results

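Genes of the nuclear genome that encode subunits of the mitochondrial respiratory chain and the ATP synthase were examined in T47D breast cancer cells. Members were the entries of the deposited expression table with a single symbol of the NDUF, SDH, UQCR, COX or ATP5 families, without pseudogenes, that reached 10 scaled fragments in at least 3 libraries. Of 82 matching entries 21 were pseudogenes by name and the other 61 all passed, out of 20162 entries tested. They comprise 26 subunits of complex I, 3 of complex II, 7 of complex III, 10 of complex IV (NDUFA4 is counted here) and 13 of complex V. ATP5S and ATP5SL carry the family name only. They are now called DMAC2L and DMAC2, and DMAC2 is known as a complex I assembly factor.

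The cells were T47D-Y, a variant of the luminal line T47D labelled as null for progesterone receptor, and T47D-co, a variant labelled as positive for it. Each received water or interferon-alpha (IFN, 20 IU/ml) for 18 h and then ethanol (EtOH) or the synthetic progestin R5020 (10 nM) for 6 h, in medium with serum and insulin. Each of the 8 combinations of line, IFN and R5020 has 3 libraries, which the design calls biological triplicates, and nothing in the labels names the separate cultures. Since T47D-Y and T47D-co are separate variants, receptor status cannot be told apart from any other difference between them.

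The respiratory chain passes electrons from NADH (complex I) and succinate (complex II) through complex III and cytochrome c to complex IV, which reduces oxygen. Protons pumped by complexes I, III and IV drive the ATP synthase, complex V. Most subunits come from nuclear genes and are made in the cytosol, the rest from mitochondrial DNA, and NRF1, the ETS factor GABP and the PGC-1 coactivators are textbook regulators of the nuclear set.

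The promoters of members that moved most, and of SDHA, are printed as the 250 bases before each start annotated by RefSeq (GRCh38.p14), since these genes share a pathway but not a response to R5020. Capitals mark matches on either strand to the NRF1 motif, CCGGAAG (ETS factors), AGAACA (the core hexamer of progesterone receptor elements) or TCAAGGTCA (estrogen-related receptors).
NDUFS1, first start, chr2:206159445-206159694, minus strand: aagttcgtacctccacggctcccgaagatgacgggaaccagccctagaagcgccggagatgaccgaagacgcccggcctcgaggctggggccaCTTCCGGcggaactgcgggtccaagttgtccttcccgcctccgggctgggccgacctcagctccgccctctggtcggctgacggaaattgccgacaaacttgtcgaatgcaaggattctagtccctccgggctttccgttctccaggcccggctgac
NDUFS1, second start, chr2:206159210-206159459, minus strand: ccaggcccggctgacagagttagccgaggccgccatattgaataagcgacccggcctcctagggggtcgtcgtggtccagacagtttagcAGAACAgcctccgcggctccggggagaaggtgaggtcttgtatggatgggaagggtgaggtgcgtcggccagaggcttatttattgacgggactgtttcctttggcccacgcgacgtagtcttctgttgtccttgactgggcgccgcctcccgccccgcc
COX5A, chr15:74938074-74938323, minus strand: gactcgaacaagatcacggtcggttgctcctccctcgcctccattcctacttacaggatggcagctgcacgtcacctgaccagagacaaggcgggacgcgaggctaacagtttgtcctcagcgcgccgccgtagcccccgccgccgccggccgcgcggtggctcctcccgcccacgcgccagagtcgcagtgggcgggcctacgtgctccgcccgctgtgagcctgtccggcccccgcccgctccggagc
SDHA, chr5:218070-218319, plus strand: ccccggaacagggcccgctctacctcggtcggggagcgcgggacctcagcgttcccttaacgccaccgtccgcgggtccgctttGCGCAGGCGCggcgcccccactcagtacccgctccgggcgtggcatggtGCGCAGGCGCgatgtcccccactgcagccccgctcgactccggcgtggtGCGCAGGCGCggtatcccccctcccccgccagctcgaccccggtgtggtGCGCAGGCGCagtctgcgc
ATP5SL (now DMAC2), chr19:41439538-41439787, minus strand: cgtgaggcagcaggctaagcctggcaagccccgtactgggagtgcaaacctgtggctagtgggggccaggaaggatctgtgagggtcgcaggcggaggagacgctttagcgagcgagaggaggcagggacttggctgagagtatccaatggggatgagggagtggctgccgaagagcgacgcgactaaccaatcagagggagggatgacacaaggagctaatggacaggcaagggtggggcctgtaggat
COX7B2, chr4:46909246-46909495, minus strand: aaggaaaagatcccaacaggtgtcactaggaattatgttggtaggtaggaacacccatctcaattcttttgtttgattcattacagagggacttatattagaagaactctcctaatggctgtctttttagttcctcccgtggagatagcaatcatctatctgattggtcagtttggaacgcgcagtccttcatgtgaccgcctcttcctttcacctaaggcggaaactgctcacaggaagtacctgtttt

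SDHA holds 4 NRF1 matches, the first NDUFS1 start an ETS match and the second an AGAACA match. The COX5A, ATP5SL and COX7B2 windows hold none of the 4 motifs. GC content was 75.2% for SDHA and 43.2% for COX7B2. Of the 61 genes, 49 matched a promoter entry, with 57 windows. NRF1 matches lay in 8 of these windows (14.0%) against 5.08% of all 35116, and ETS matches in 12 (21.1%) against 8.52%. AGAACA lay in 5 (8.77%) against 12.4% of all, and TCAAGGTCA in none against 0.319%. Mean GC was 58.1% for the 57 windows and 57.2% for all. A match is a run of letters, and binding was not measured.

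Values are estimated fragments on one scale common to the 24 libraries and are not divided by gene length, so levels are compared within a gene only. Mean levels ran from 19.6 for COX7A1 to 9801 for ATP5B, the catalytic beta subunit, with a median of 957.7. 59 of 61 genes exceeded 300 scaled fragments. The genes were steady across the study: the highest group mean exceeded the lowest by a median of 1.30-fold, by under 1.5-fold in 50 of 61 genes, and by over 2-fold in 2, COX7B2 (4.33-fold) and NDUFB10 (2.28-fold). The lowest of the 8 group means was that of T47D-co with R5020 and IFN for 24 genes.

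Library depth was 14141310 to 33607503 estimated fragments, median 18385831. T47D identity was checked first: of 8 luminal epithelial markers 7 were tested, and KRT8, KRT18, KRT19, GATA3, FOXA1, ESR1 and EPCAM had group means from 1504 (EPCAM) to 29516 (KRT8). Of 14 markers of fibroblasts, leukocytes, endothelium and basal epithelium 4 reached the filter. PGR, the receptor gene, averaged 26480 scaled fragments in T47D-co and 692.6 in T47D-Y with EtOH and water, so its RNA was low in T47D-Y but present. In 4 libraries given water (T47D-Y EtOH 1, T47D-Y R5020 1 and 2, T47D-co EtOH 2) mitochondrially encoded entries took 0.942 to 1.07% of fragments, against 3.17 to 4.74% in the other 20. One merged entry holding MT-ATP6 is listed at 0 in those 4 and at 495850 to 687230 elsewhere. The entries with MT-ND1, MT-CYB and MT-ND6 measured 66745 to 82159, 77214 to 91251 and 21426 to 25655 in those 4. These values lay within the ranges of the other 20 (55120 to 90430, 67236 to 95629 and 14357 to 27146). The low share therefore rests on the merged entry listed at 0 and not on these other entries.

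**Figure D1:**
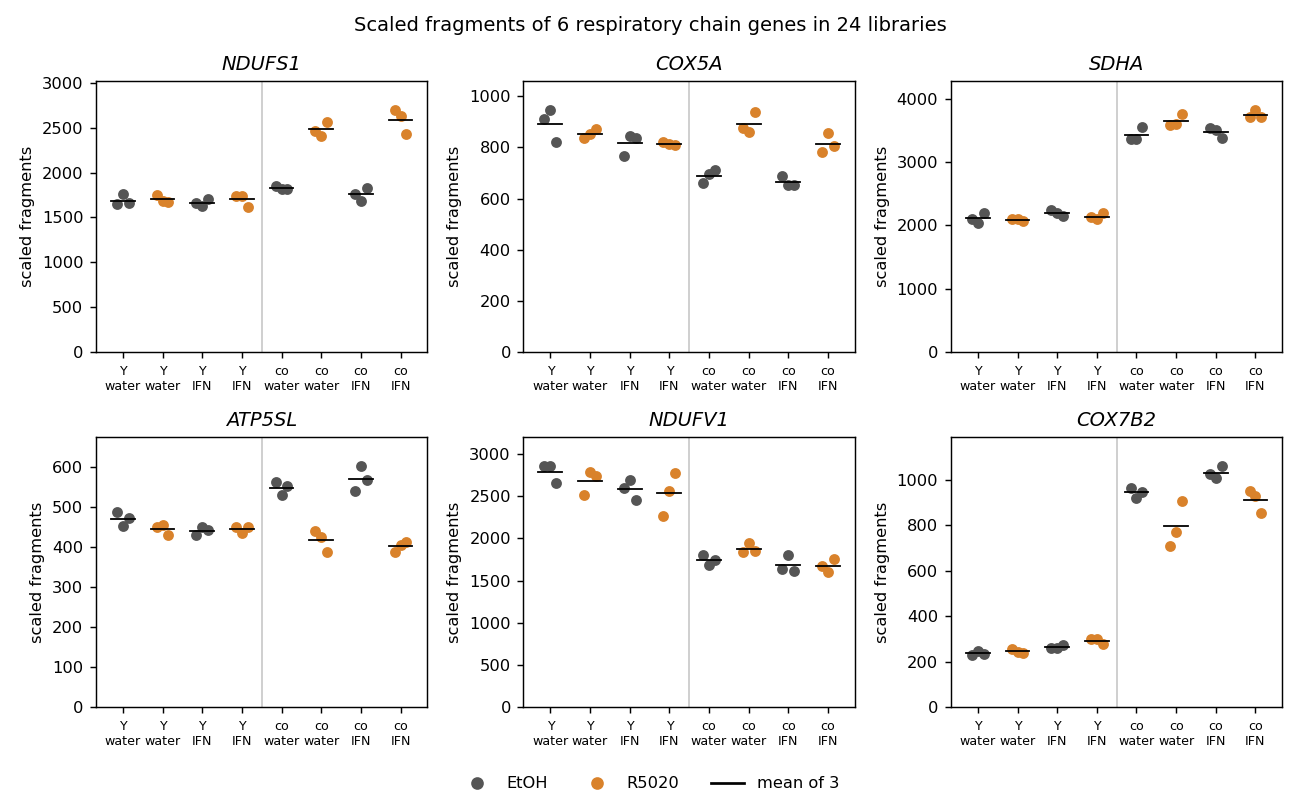
Scaled fragments of NDUFS1, COX5A, SDHA, ATP5SL, NDUFV1 and COX7B2 (linear vertical axes from 0) in the 8 groups of 3 libraries, with group means as bars. NDUFS1 is at 2408 or more in the 6 T47D-co libraries with R5020 and at 1848 or less in the other 18.

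The first comparison asked what R5020 did in T47D-co without IFN. NDUFS1 and COX5A rose, ATP5SL and COX7B2 fell, and most other subunits differed by little. Of 61 genes 15 passed at an adjusted p under 0.05 (limma, Benjamini-Hochberg over all entries), 10 higher and 5 lower, which is 24.6% of the members. Over all entries the same test called 56.5%, 26.6% higher and 30% lower, and over the 8072 entries with a mean of at least 500 it called 73.2%. The median absolute log2 fold change was 0.065 for the members, 0.35 for all entries and 0.25 for those of at least 500. For 58 of 61 genes the 95% interval of the log2 fold change lay within 0.5 of 0. The 3 libraries of one group did not overlap the 3 of the other for 18 of 61 genes, against 61.7% of all entries. In bulk RNA, fewer cells that express a gene and less RNA per cell cannot be told apart.

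Complex I had 3 of 26 subunits higher (NDUFS1, NDUFS5, NDUFB10) and 3 lower, among them NDUFS4 and NDUFB5. NDUFS1, the largest of its iron-sulfur subunits, lies in the arm that oxidises NADH. It measured 1848, 1812 and 1818 scaled fragments with EtOH and 2467, 2408 and 2568 with R5020. The groups were far apart, with a log2 fold change of 0.44 ± 0.04 (SE, adjusted p = 9.79e-10 by limma). NDUFS1 shares its deposited locus with EEF1B2 and 2 other entries and holds 76.3% of its fragments, and the sum over the locus changed by 0.40. NDUFS5, an accessory subunit of the membrane arm, measured 887, 957 and 874 with EtOH and 1061, 993 and 1038 with R5020. It rose by 0.19 ± 0.05 on the log2 scale (adjusted p = 0.0034 by limma). NDUFB10, in the distal membrane arm, rose by 0.15 ± 0.04 (adjusted p = 0.00512 by limma). NDUFS4, an accessory subunit of the NADH arm, changed by -0.16 ± 0.06 and NDUFB5, in the membrane arm, by -0.11 ± 0.04 (adjusted p = 0.0286 and 0.0166 by limma). NDUFV1, which carries the flavin that takes electrons from NADH, measured 1804, 1686 and 1749 with EtOH and 1835, 1939 and 1847 with R5020 and did not pass (0.10 ± 0.06, adjusted p = 0.147 by limma). NDUFA1 (0.08 ± 0.06) and NDUFB1 (-0.06 ± 0.06) did not pass either.

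In complex II, SDHA, the flavoprotein that oxidises succinate, measured 3369, 3369 and 3555 with EtOH and 3584, 3605 and 3756 with R5020. All 3 treated libraries exceeded all 3 controls, by a log2 fold change of 0.09 ± 0.03 (adjusted p = 0.0245 by limma). SDHB, the iron-sulfur subunit, did not pass at 0.10 ± 0.06 (adjusted p = 0.155 by limma). Complex III had 3 of 7 subunits higher and none lower. UQCRC1, a core protein, measured 1820, 1774 and 1818 with EtOH and 2063, 2064 and 1995 with R5020, without overlap. It rose by 0.18 ± 0.06 (adjusted p = 0.0102 by limma), the Rieske iron-sulfur protein UQCRFS1 by 0.16 ± 0.06 (0.0182) and the hinge protein UQCRH by 0.14 ± 0.05 (0.00805).

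Complex IV had 1 of 10 subunits higher and 1 lower. COX5A, a subunit of its matrix side, measured 662, 695 and 712 scaled fragments with EtOH and 874, 861 and 938 with R5020. The rise was 0.37 ± 0.05 on the log2 scale (adjusted p = 1.29e-06 by limma), while COX5B differed by 0.08 ± 0.05 and did not pass (adjusted p = 0.234). COX7B2, an isoform of COX7B, measured 964, 922 and 948 with EtOH and 711, 769 and 906 with R5020. R5020 library 3 lies near the controls, and the log2 change was -0.26 ± 0.07 (adjusted p = 0.0019 by limma). COX7A1, the muscle isoform, averaged 19.6 scaled fragments over all libraries, and its change of -0.36 ± 0.28 did not pass. COX7A2, the form of most tissues, differed by -0.07 ± 0.05. Complex V had 2 of 13 subunits higher, the e subunit ATP5I (0.16 ± 0.07, adjusted p = 0.0428 by limma) and the epsilon subunit ATP5E (0.13 ± 0.05, adjusted p = 0.0249 by limma). ATP5I holds 51.0% of a locus shared with MYL5 and MFSD7, whose sum changed by 0.33. The catalytic subunits ATP5A1 and ATP5B differed by 0.02 ± 0.03 and 0.0019 ± 0.030 and did not pass. ATP5G1, ATP5G2 and ATP5G3, which encode the same mature c-ring protein, differed by 0.06 ± 0.08, -0.03 ± 0.04 and 0.10 ± 0.05, and none passed. ATP5SL measured 562, 532 and 553 with EtOH and 442, 426 and 387 with R5020. It fell in all 3 treated libraries, with a log2 change of -0.39 ± 0.05 (adjusted p = 8.68e-07 by limma).

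The calls of NDUFS1, COX5A, NDUFS5, ATP5SL and COX7B2 held under each other scaling tried and without each of the 6 libraries in turn. The split of 10 higher and 5 lower became 12 and 3 on the deposited scale, 5 and 7 with upper-quartile scaling and 4 and 11 with quantile normalization, so no direction is given for the family as a whole. The higher calls of NDUFB10, SDHA, UQCRC1, UQCRFS1, UQCRH, ATP5I and ATP5E and the lower calls of NDUFS4 and NDUFB5 were each lost under at least 1 of the 3 scalings. Leaving out 1 library also ended calls. For SDHA, adjusted p was 0.0935, 0.0945 and 0.127 without T47D-co EtOH 1, EtOH 2 and R5020 3, and with quantile normalization its log2 change was -0.036. For UQCRFS1 it was 0.109 and 0.0587 without EtOH 2 and R5020 1, and for NDUFB5 0.062 and 0.139 without EtOH 2 and R5020 2. NDUFS4 gave 0.0698, 0.145, 0.0905 and 0.0839 without EtOH 1, EtOH 2, R5020 1 and R5020 2. ATP5I gave 0.146, 0.115, 0.166 and 0.0748 without EtOH 1, EtOH 3, R5020 1 and R5020 2. SDHB was called without R5020 2 (0.0202) and ATP5G3 without R5020 3 (0.0352).

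Markers of cell identity moved with R5020 in T47D-co as well. The summed level of the 7 luminal markers was 90054 to 90604 scaled fragments with EtOH and 61763 to 64048 with R5020, and 5 of them (KRT8, KRT18, ESR1, GATA3, FOXA1) were called lower. The other-cell markers, of which 7 of 14 have an entry, summed to 502 to 573 and 622 to 708. KRT5, a basal keratin, averaged 0.559 with EtOH and 261 with R5020. COL1A1 (452.5 and 342.0) and TP63 (25.2 and 13.4) were called lower. After IFN the luminal sums were 88806 to 93056 and 58590 to 64204 and the other-cell sums 494 to 557 and 545 to 605. The part of these shifts in the changes of the respiratory chain genes was not tested.

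**Figure D2:**
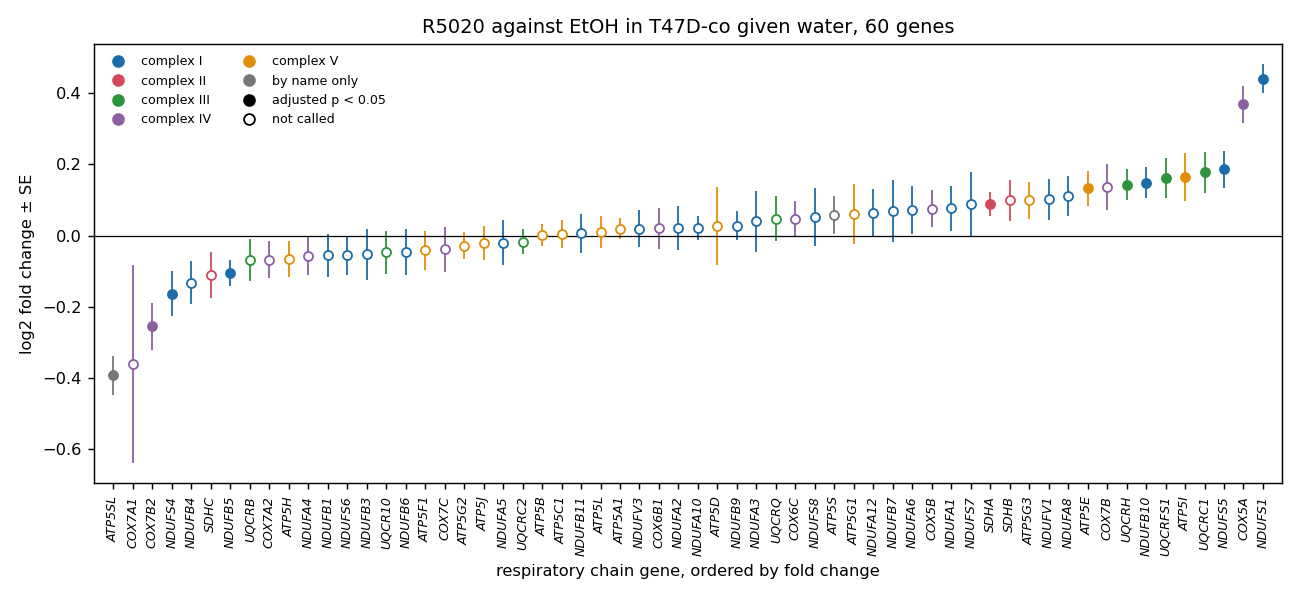
Log2 fold change with R5020 in T47D-co given water (vertical axis, ± SE, 3 libraries per group) for 60 of the 61 genes in order of size, coloured by complex, filled where the adjusted p is under 0.05. NDUFS1 (0.44) and COX5A (0.37) lie apart at the high end and ATP5SL (-0.39) at the low end.

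The same comparison in T47D-Y gave no call among the 61 genes by limma, at a rate of 0.218% over all entries. At an unadjusted p under 0.05 there was 1 gene, and limma with voom weights also called 0. With IFN it was again 0 (0.298% of all entries), with 5 genes at an unadjusted p under 0.05 (1203 of all entries) and 0 with voom weights. NDUFS1 measured 1647, 1755 and 1662 with EtOH and 1747, 1681 and 1677 with R5020 in T47D-Y, which overlap (0.01 ± 0.04). COX5A measured 913, 946 and 821 with EtOH and 838, 854 and 872 with R5020, also overlapping (-0.06 ± 0.05). The difference between the lines was tested as an interaction. It passed for 9 genes, and the log2 change in T47D-co minus that in T47D-Y was above 0 for 6 and below 0 for 3 (14.8% of the members, against 44.6% of all entries). It was above 0 for COX5A, NDUFS1, NDUFS5, ATP5E, UQCRC1 and UQCRH. Among those below 0 were ATP5SL and COX7B2, which fell in T47D-co and differed by -0.08 ± 0.05 and 0.05 ± 0.07 in T47D-Y, without a call. Of the 9 genes, ATP5E and UQCRC1 lost the call under at least 1 other scaling. The split of 6 and 3 was 4 and 7 with quantile normalization. The COX7B2 difference was not called without the 4 libraries of low mitochondrial share (adjusted p = 0.135 by limma).

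After IFN, R5020 in T47D-co called 31 of 61 genes, 5 higher and 26 lower (50.8%, against 58.2% of all entries, of which 27.5% were higher and 30.6% lower). The lower genes came from complex I (10 of 26), complex V (7 of 13), complex IV (6 of 10) and complex III (2 of 7), with ATP5SL. NDUFS1 again measured 1763, 1684 and 1827 with EtOH against 2697, 2627 and 2434 with R5020, a log2 rise of 0.56 ± 0.04 (adjusted p = 1.15e-11 by limma). COX5A rose from 688, 654 and 654 to 781, 856 and 804, by 0.29 ± 0.05 (adjusted p = 3.95e-05 by limma). ATP5S rose by 0.14 ± 0.05 (adjusted p = 0.0278 by limma), with 35.3% of the fragments of its locus, whose sum changed by 0.56. ATP5SL went from 542, 604 and 569 to 389, 406 and 414, a change of -0.50 ± 0.05 (adjusted p = 1.44e-08 by limma). UQCR10, a small subunit of complex III, measured 737, 786 and 645 with EtOH and 589, 561 and 575 with R5020. The EtOH libraries are spread but lie above all treated ones, with a log2 change of -0.32 ± 0.06 (adjusted p = 6e-05 by limma). NDUFA2, an accessory subunit of the NADH arm, changed by -0.30 ± 0.06 (adjusted p = 0.000176 by limma) and holds 44.3% of a locus shared with TMCO6 and IK, whose sum changed by -0.18. The c-ring genes ATP5G1 (-0.29 ± 0.08), ATP5G2 (-0.17 ± 0.04) and ATP5G3 (-0.12 ± 0.05) were all called lower, as was ATP5B (-0.10 ± 0.03), but the ATP5G3 call did not hold under every scaling.

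The median over the 61 genes was -0.11 with IFN and 0.022 without, and over all entries -0.046 and -0.036. In all, 4 genes were called higher in both settings (COX5A, UQCRFS1, NDUFS1, SDHA), 40% of those higher with water and 80% of those higher with IFN, and 23% of all entries were higher in both. The 4 lower in both, among them ATP5SL, NDUFB5 and COX7B2, were 80% and 15.4% of the 2 lists, and 24.2% of all entries were lower in both. ATP5E was called higher with water (0.13) and lower with IFN (-0.12 ± 0.05), and neither call held under every scaling. The difference between the 2 R5020 responses was tested as an interaction, and 0 of 61 genes passed by limma or with voom weights (1.01% of all entries did), with 19 at an unadjusted p under 0.05. The median of the interaction was -0.11, with 52 of 61 values below 0, against a median of 0.024 over all entries. The 61 values come from the same libraries, so the 52 are not separate results. Member medians of single libraries varied within groups with a standard deviation of 0.043 on the log2 scale. Without T47D-co EtOH 3 given water, T47D-co EtOH 3 given IFN or T47D-co R5020 3 given IFN the interaction called 1, 4 and 1 genes. The 26 and 5 calls became 31 and 2 with upper-quartile scaling, and 23 of the 26 lower and 2 of the 5 higher (NDUFS1, COX5A) were called under all scalings. Without T47D-co EtOH 2 given IFN, 20 genes were called in place of 31. The call of ATP5S was lost without any of 4 libraries (T47D-co given IFN, EtOH 2 and 3, R5020 1 and 2), with adjusted p of 0.107, 0.073, 0.0632 and 0.0614.

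**Figure D3:**
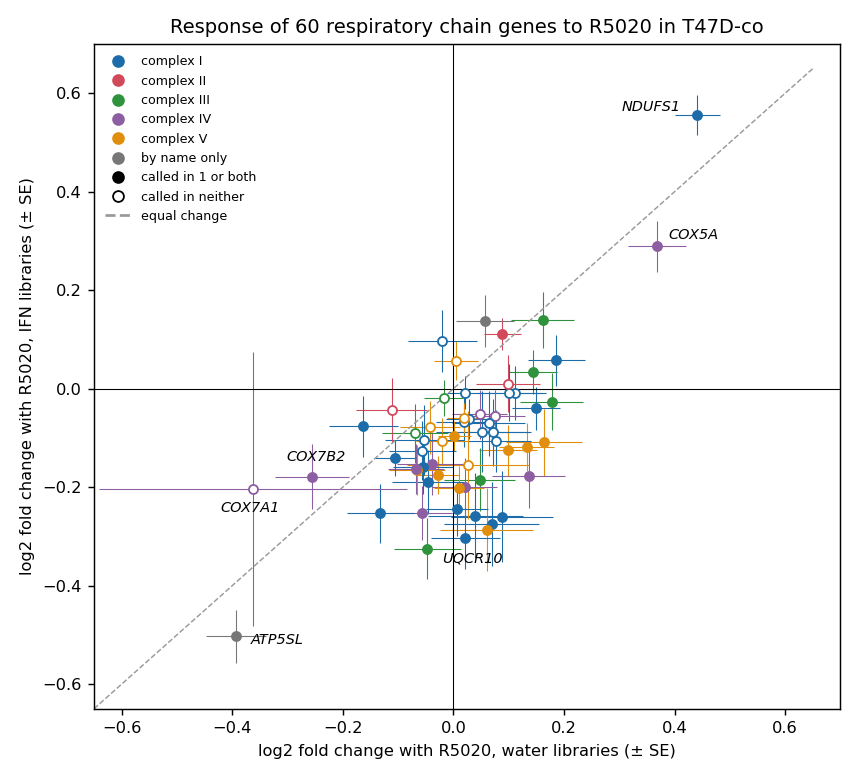
Log2 fold change with R5020 in T47D-co given water (horizontal axis) and given IFN (vertical axis), ± SE, for 60 of the 61 genes, with filled points for genes called in either setting. NDUFS1 lies above the line of equal change and most points, COX5A and ATP5SL among them, lie below it, with a median over the 61 genes of 0.022 on the horizontal axis and -0.11 on the vertical axis.

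Values that moved with the T47D-co libraries given R5020 and IFN were recorded beside this. In these 3 libraries the 61 genes took 0.396 to 0.397% of all fragments, against 0.422 to 0.464% in the other 9 T47D-co libraries. Entries of the RN7 family, MALAT1 and RPPH1 took 2.96 to 3.32% against 3.81 to 4.46%. The 0.464% is T47D-co EtOH 2 given water, whose total lacks the merged MT-ATP6 entry listed at 0. The next highest member share was 0.455%, in T47D-co EtOH 1 given IFN. By coding length, which has a median of 411 bases among the members, the 31 shorter members had a median R5020 change after IFN of -0.16 with 17 lower and 0 higher calls by limma. The 30 longer members had -0.061, with 9 lower and 5 higher. The 5804 entries with a known coding length and a mean of at least 500 include 54 of the members. Of the 5804, the 264 as short as the shorter members had a median of -0.085 and the rest 0.038. For the R5020 by IFN interaction, the shorter and longer members had medians of -0.13 and -0.089. The 264 short entries had -0.099 and the rest 0.020. The part of gene length and of library make-up in these changes was not tested.

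IFN given alone to T47D-co called 0 of 61 genes by limma and with voom weights (1% of all entries), with 1 at an unadjusted p under 0.05. NDUFS1, COX5A and SDHA differed by -0.05 ± 0.04, -0.05 ± 0.05 and 0.02 ± 0.03. In the presence of R5020, IFN called 12 genes, 1 higher and 11 lower (19.7%, against 11.3% of all entries, with 7.57% higher and 3.69% lower). The median change was -0.080 over the members and 0.020 over all entries. Of the 5804 entries with a known coding length, the 264 as short as the shorter members had -0.078 and the rest 0.030. The part of gene length in these calls was not tested. NDUFB7, a subunit of the distal membrane arm, measured 744, 729 and 755 with R5020 and 558, 581 and 634 with R5020 and IFN. These do not overlap, and the log2 change was -0.33 ± 0.09 (adjusted p = 0.0143 by limma). UQCR10 measured 697, 681 and 674 and then 589, 561 and 575, a change of -0.25 ± 0.06 (adjusted p = 0.00959 by limma). ATP5G1 changed by -0.27 ± 0.08 (adjusted p = 0.0388 by limma) and holds 15.2% of its shared locus, whose sum changed by 0.011. That call did not hold under every scaling. The 12 calls fell to 7, 6, 4 and 4 without T47D-co R5020 1 or 2 given water or R5020 1 or 2 given IFN, and rose to 17 without T47D-co R5020 3 given IFN. NDUFB7 was not called without R5020 1 (adjusted p = 0.0767) or R5020 2 given IFN (0.0534), and ATP5G1 was not called without any of these 4, with adjusted p between 0.0907 and 0.166.

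In T47D-Y, IFN called 2 genes with EtOH, both lower and both in complex V (3.28%, against 4.44% of all entries). ATP5E measured 1323, 1359 and 1325 with water and 1119, 1215 and 1111 with IFN (-0.22 ± 0.05, adjusted p = 0.00871 by limma). ATP5A1 measured 4760, 5084 and 4825 and then 4467, 4623 and 4389 (-0.12 ± 0.03, adjusted p = 0.0175 by limma). Both sets are separate, but the ATP5E call was lost without T47D-Y EtOH 1 or 3 given IFN (adjusted p = 0.0512 and 0.0554). That of ATP5A1 was lost without the same libraries or EtOH 2 given water (0.0673, 0.0999 and 0.14). With R5020 present, IFN called COX7B2 higher (0.25 ± 0.07, adjusted p = 0.0275 by limma) and ATP5L, the g subunit, lower (-0.18 ± 0.05, adjusted p = 0.0178 by limma), 3.28% of the members against 4.77% of all entries. COX7B2 measured 256, 241 and 241 with R5020 and 300, 302 and 277 with R5020 and IFN. Its call was lost without T47D-Y R5020 2 or 3 given water, or R5020 1 or 2 given IFN (adjusted p between 0.108 and 0.114). ATP5L holds 29.05% of the fragments of a locus shared with UBE4A and RP11-770J1.5, whose sum changed by -0.13. ATP5L was not called without R5020 2 given water (0.109) or R5020 1 given IFN (0.0781). Neither was called without the 4 libraries of low mitochondrial share (0.229 and 0.432). The IFN effect did not pass a test of difference between the lines for any of 61 genes by limma or with voom weights (0.377% of all entries), with 6 at an unadjusted p under 0.05. Without T47D-co EtOH 3 given IFN it passed for 1.

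IFN calls depend on placing water and IFN libraries on one scale. On the deposited scale, set separately within each line and IFN state, the median of all entries shifts by -0.47 in T47D-Y and -0.18 in T47D-co with EtOH, and 61 and 30 members are then lower. Relative to that shift the member medians were -0.043 and 0.036.

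The last question was how the lines differ. With EtOH and water, 23 of 61 genes were higher in T47D-co and 15 lower (62.3%, against 63.1% of all entries, 29.7% higher and 33.5% lower). COX7B2 measured 231, 248 and 235 in T47D-Y and 964, 922 and 948 in T47D-co. It was the member with the widest difference, at 1.98 ± 0.07 on the log2 scale (adjusted p = 8.07e-19 by limma). The accessory subunits NDUFB10 (0.95 ± 0.04), NDUFB9 (0.85 ± 0.04) and NDUFB5 (0.79 ± 0.04) of the distal membrane arm of complex I followed. NDUFB10 measured 884, 949 and 872 in T47D-Y and 1667, 1826 and 1748 in T47D-co. NDUFB9 holds 42.5% of a locus shared with TATDN1 and MTSS1, whose sum differed by 0.86. SDHA measured 2100, 2038 and 2198 in T47D-Y against 3369, 3369 and 3555 in T47D-co (0.70 ± 0.03, adjusted p = 8.94e-16 by limma). UQCRC2, a core protein of complex III, was higher by 0.54 ± 0.04.

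Other members of the same complexes were lower in T47D-co. NDUFV1 measured 2860, 2852 and 2658 in T47D-Y and 1804, 1686 and 1749 in T47D-co (-0.68 ± 0.06, adjusted p = 1.79e-10 by limma). NDUFV3 (-0.43 ± 0.05) and NDUFS6 (-0.38 ± 0.05), which lie in the same NADH arm, were lower too, as was NDUFB1 (-0.41 ± 0.06) of the membrane arm. ATP5J, a stalk subunit of complex V, was lower by a log2 change of -0.46 ± 0.05 and COX7C of complex IV by -0.37 ± 0.06. ATP5B, at 11031, 11228 and 10675 in T47D-Y, measured 9210, 8833 and 8677 in T47D-co (-0.30 ± 0.03). COX5A was also lower (-0.37 ± 0.05). With R5020 its T47D-co libraries (874, 861, 938) overlapped those of T47D-Y (838, 854, 872), and the difference of 0.06 ± 0.05 did not pass (adjusted p = 0.322 by limma). SDHA and NDUFS6 both lie on chromosome 5 of hg19, at chr5:218355-256815 and chr5:1801513-1816719, and differ in opposite directions.

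Counted by complex, 12 subunits of complex I were higher and 5 lower, and complexes III, IV and V had 3 and 2, 3 and 4, and 3 and 3. The other 3 pairs of like-treated groups called 31 higher and 13 lower with EtOH and IFN (72.1%, against 62.6% of all entries), 26 and 12 with R5020 and water (62.3%, against 68.5%) and 22 and 16 with R5020 and IFN (62.3%, against 68.3%). The 4 pairs share no library, and 19 genes were higher and 11 lower in all 4, as were 17.6% and 20.5% of all entries. On the deposited scale, where all entries shift by -0.27 between the untreated lines, the split of 23 and 15 becomes 12 and 34, and with R5020 and water 26 and 12 becomes 16 and 30. With R5020 and IFN it becomes 25 and 11. All 15 lower and 12 of the 23 higher calls held under every scaling, among them COX7B2, NDUFB10, NDUFB9, NDUFB5, SDHA, UQCRC2 and NDUFV1.

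**Figure D4:**
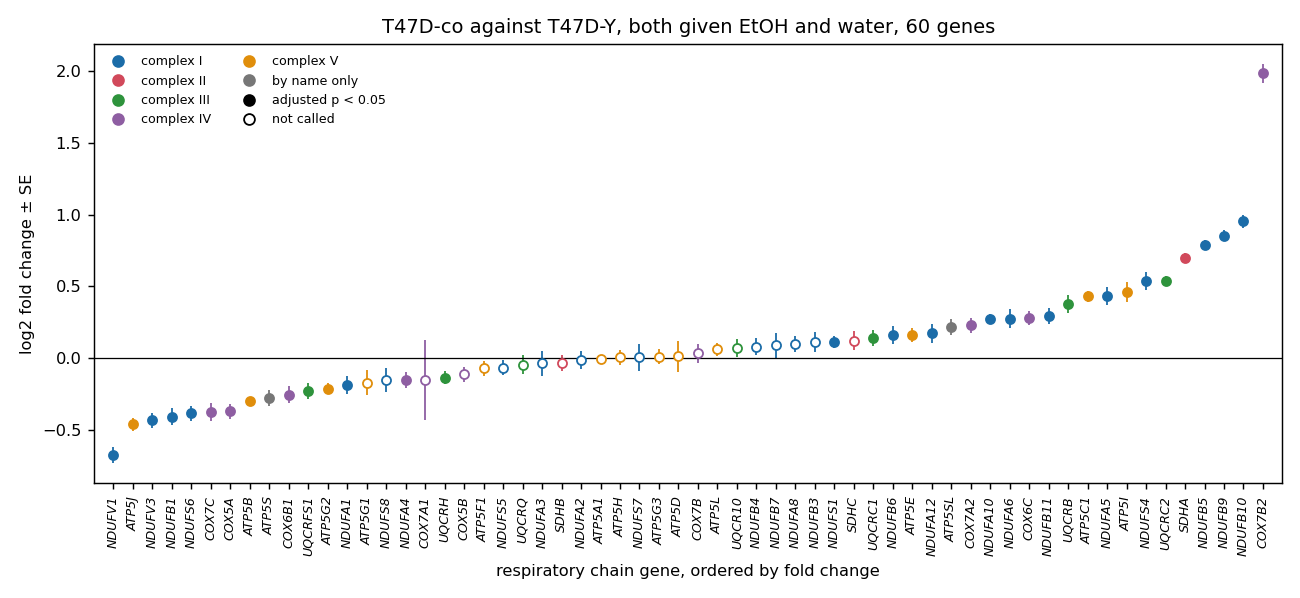
Log2 difference of T47D-co from T47D-Y with EtOH and water (vertical axis, ± SE, 3 libraries per line) for 60 of the 61 genes in order of size, coloured by complex, filled where the adjusted p is under 0.05. COX7B2 (1.98) lies far above the rest, and complex I subunits lie at both ends, from NDUFV1 (-0.68) to NDUFB10 (0.95).

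Lists of genes that regulate, assemble or feed the chain were read in the same way for R5020 in T47D-co given water, where 56.5% of all entries were called with a median of -0.036. Of 14 listed regulators of mitochondrial biogenesis 12 were tested, and 8 were higher and 2 lower, with a median log2 change of 0.41. PPARGC1B, which encodes the coactivator PGC-1 beta, measured 521, 482 and 505 with EtOH and 2269, 2198 and 2221 with R5020, a log2 rise of 2.15 ± 0.04 (adjusted p = 3.96e-23 by limma). MYC measured 25, 38.5 and 38.0 and then 135, 160 and 164, a rise of 2.17 ± 0.17 (adjusted p = 4.58e-11 by limma). PPARGC1A, the gene of PGC-1 alpha, went the other way, from 164, 178 and 159 to 33.6, 21.0 and 24.3, a change of -2.65 ± 0.29 (adjusted p = 1.36e-08 by limma). Both PGC-1 genes had groups far apart in opposite directions. GABPA, the DNA-binding subunit of GABP, measured 691, 614 and 664 with EtOH and 541, 535 and 575 with R5020 (-0.25 ± 0.06, adjusted p = 0.00135 by limma), and it shares its locus with ATP5J.

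Of 50 assembly factors 33 were tested, with 12 higher and 8 lower and a median of 0.059. TMEM70, which helps build the ATP synthase, measured 485, 470 and 499 with EtOH and 1260, 1334 and 1242 with R5020 (1.40 ± 0.06). NDUFAF2, a complex I factor, rose by 1.03 ± 0.06, while NUBPL and TMEM126B, also complex I factors, changed by -0.58 ± 0.05 and -0.30 ± 0.06. Of 10 subunits or partners outside the naming pattern 8 were tested (median 0.094), with 4 higher, among them cytochrome c (CYCS, 0.31 ± 0.06) and C14orf2 (0.26 ± 0.06), and 1 lower, the ATP synthase inhibitor ATPIF1 (-0.32 ± 0.04). In the TCA cycle and its entry step 6 of 15 tested genes were higher and 5 lower (median 0.059), with the pyruvate dehydrogenase subunits PDHA1 (0.95 ± 0.03) and PDHB (-0.23 ± 0.05) in opposite directions, FH at 0.53 ± 0.06 and SUCLG2 at -0.43 ± 0.04. Of 57 tested proteins of the mitochondrial ribosome 24 were higher and 7 lower (median 0.056), with MRPS23 (0.57 ± 0.06) and MRPS25 (0.49 ± 0.03) highest and MRPS18C (-0.40 ± 0.10) and MRPS9 (-0.35 ± 0.05) lowest. The genes named here kept their call under every scaling with water. The splits that moved most were 9 and 10 for assembly factors and 17 and 10 for the mitochondrial ribosome, both with upper-quartile scaling. Like GABPA, the list genes PPARGC1A, NDUFAF2, PDHA1, ATPIF1, MRPS25, MRPS18C and MRPS9 share their deposited locus with other entries. Sums over those loci are not given. After IFN the regulators had 9 higher and 3 lower, PPARGC1B at 2.13 ± 0.04 and PPARGC1A at -2.09 ± 0.29, and the assembly factors 11 and 10. In T47D-Y none of these 5 lists had a call by limma with either IFN state (44 and 60 of all entries had one). At an unadjusted p under 0.05 there were 0 or 1 genes per list with water and 0 to 5 with IFN. The lists were drawn up with earlier results of these libraries known.

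The mitochondrially encoded entries with MT-ND1 (-0.34 ± 0.07, adjusted p = 0.000306 by limma) and MT-CYB (-0.19 ± 0.06, adjusted p = 0.00948 by limma), were lower with R5020 in T47D-co given water. The entry with MT-ND1 measured 81733, 82159 and 81629 with EtOH and 73570, 55120 and 67152 with R5020. MT-CYB measured 81996, 91251 and 89146 with EtOH and 83557, 67236 and 79907 with R5020, which overlap. T47D-co R5020 2 was the lowest of the 24 libraries for the entries with MT-ND1, MT-CYB and MT-ND6 (55120, 67236 and 14357). MT-ND6 at -0.24 ± 0.11 did not pass.

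Averaged over the members, the centred log2 level of the 8 groups ran from -0.082 in T47D-Y with EtOH and IFN to 0.093 in T47D-co with EtOH and IFN, and was -0.0052 in T47D-co with R5020 and IFN. Of 14150 other entries with a mean of at least 50, the nearest to this profile over the 8 group means, by Pearson correlation, were SCARNA2 (0.987), JOSD2 (0.986), a merged entry of AC002985.3, COPE and HOMER3 (0.986), SLC39A4 (0.985) and CBX8 (0.983). The 8 points share the libraries and the scaling, and the values are descriptive.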

How the data were processed

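Total RNA of 24 libraries was sequenced on Illumina MiSeq, per the labels. The authors deposited one table of 25541 gene entries, which holds a signal, estimated fragments divided by a size factor, as inferred from the values. TopHat2 2.0.12, Cufflinks 2.2.1 and GRCh37 (hg19) are named in the submitters' processing notes, with no order or role, and the annotation is not given in the sources used here. Genes alone at a locus hold whole multiples (within 0.05 of a step) of one step per library in 97.4 to 98.7% of values. Dividing by that step gave fragments, which were put on one median-of-ratios scale over 14209 entries. Shared loci hold fractions, so no count test was used.

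Entries with at least 10 in 3 libraries, less 25 with a repeated symbol, were tested with limma 3.58.1 in R 4.3.3 on log2(value + 1), as 8 group means with a variance trend, with Benjamini-Hochberg adjustment over 20162 entries and a two-sided call under 0.05. The code was tested on simulated data. Of the members 24 share a locus with other entries, 23 have a pseudogene entry, and 19 merged entries with a matching symbol were not used. Coding lengths are from GENCODE v29. Counts cover all members, but the values of 1 member are not reported here. The members and lists were chosen with earlier results of these data known. Genes were named if called, without overlap of libraries, and among the largest changes (6 each way with R5020 in untreated T47D-co and between untreated lines, 3 elsewhere), or as fixed members of each complex. Up to 2 each way were taken from each list, and NDUFB10, UQCRH, and ATP5E and SDHA with R5020 are named beside counts after their values were seen. Alternatives were 3 scalings, voom weights, other filters and pseudocounts, only the groups compared, a replicate block and leaving out libraries.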

Additional observations from a re-analysis of the deposited data

Results flagged for a closer look

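The change with R5020 given after water differed between T47D-co and T47D-Y by a test of the difference itself (limma, line by R5020 interaction, adjusted over all entries) for 9 of the 61 genes, of which 8 are given here, against 44.6% of all entries. The log2 difference of the changes was 0.43 for COX5A, 0.43 for NDUFS1, 0.25 for NDUFS5, 0.23 for ATP5E, 0.22 for UQCRC1 and 0.20 for UQCRH. It was -0.30 for COX7B2 and -0.31 for ATP5SL. COX5A, NDUFS1, NDUFS5, UQCRH, COX7B2 and ATP5SL kept the call under all 3 other scalings, and ATP5E and UQCRC1 lost it under at least 1. The COX7B2 call was lost without the 4 libraries of low mitochondrial share (adjusted p = 0.135 by limma).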

How the results depend on the processing

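Apart from leaving out single libraries, 145 counts of called genes stayed within 1.5 times the count reported and 20 did not. For named genes 887 values kept their direction and side of the threshold, 26 lost the call, 8 gained one and 8 reversed. The deposited scale differs from the common one by an offset that varies little within each line and IFN state. In T47D-co given water this offset ran from 0.028 to 0.069 on the log2 scale. On the deposited scale IFN called 30 and 52 genes in T47D-co with EtOH and with R5020. In T47D-Y IFN called 61 and 60, and 58 passed the test of difference between lines. The median over all entries there was -0.182 and -0.165 in T47D-co and -0.474 and -0.481 in T47D-Y. For the difference between lines it was 0.289. Relative to these shifts the member medians were 0.036 and -0.10, -0.043 and -0.031, and 0.092. On that scale COX7B2 reversed to -0.23 for IFN in T47D-Y with R5020. Between the untreated lines ATP5G3 reversed to -0.23, NDUFS1 to -0.12, UQCRC1 to -0.093 and COX7A2 to -0.0065. Quantile normalization reversed ATP5B (-0.21), ATP5A1 (-0.14) and SDHA (-0.036) for R5020 in T47D-co with water and called 4 genes for IFN in T47D-Y with R5020. For IFN in T47D-co with R5020, 7 genes were called with no filter and 7 without the 4 libraries of low mitochondrial share. Leaving out those 4 also gave 0 for IFN in T47D-Y with R5020. Fitting only the groups compared gave 1 gene for IFN in T47D-Y with EtOH and 1 with R5020, and voom weights gave 1 for the latter. When only entries alone at their locus were fitted and adjusted, which leaves 37 members, 17 were called for R5020 in T47D-co with IFN, 6 for IFN in T47D-co with R5020, 0 and 1 for IFN in T47D-Y with EtOH and with R5020, and 24, 29, 25 and 25 between the lines (EtOH and water, EtOH and IFN, R5020 and water, R5020 and IFN). These counts are lower by construction, since fewer members enter. For the others the cause was not tested.

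Leaving out 1 library at a time gave 12 to 16 calls for R5020 in T47D-co with water, 20 to 28 with IFN, 8 to 11 for the line by R5020 test, 0 to 4 for the R5020 by IFN test and 0 to 1 for the line by IFN test. IFN gave 4 to 17 in T47D-co with R5020 and 0 to 3 in T47D-Y, both with EtOH and with R5020. Between the lines the ranges were 35 to 38, 39 to 44, 35 to 38 and 33 to 38.

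Libraries share replicate numbers across groups, but the labels do not say what a number marks. Over 36 pairs of libraries with the same number, 5 had correlated deviations over 0.1 (range -0.33 to 0.26). With 3 libraries a group these values cannot show whether an equal number marks a shared culture or day. With the replicate block, 15 and 30 genes were called for R5020 in T47D-co with water and with IFN, 0 in T47D-Y, 12 for IFN in T47D-co with R5020, 2 and 2 for IFN in T47D-Y, 9 for the line by R5020 test, and 38, 45, 38 and 39 between the lines. The median standard error of a member's log2 fold change was 0.055 with 3 libraries a group, and COX7A1, at 19.6 fragments, had 0.28, the largest among the members.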
